A study of Mus musculus with 6 samples.

Results

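A set of 10 genes of salivary duct ionocytes and of duct ion transport was followed in mouse salivary gland: the transcription factor genes Ascl3, Foxi1 and Tfcp2l1, the chloride channel gene Cftr, the epithelial sodium channel genes Scnn1a, Scnn1b and Scnn1g, the exchanger and cotransporter genes Slc26a4 and Slc4a4, and the proton pump gene Atp6v1b1. They were taken by symbol and make up 10 of the 24054 genes in the count table. Of these 10, 9 had enough counts to be tested, among 14044 genes tested, and Slc26a4 did not. The samples were whole salivary gland RNA from 3 control and 3 K5-rtTA:TetO-RANKL libraries, here called K5-RANKL. In the K5-RANKL mice the keratin 5 promoter, active in basal epithelial cells, drives the doxycycline-dependent activator rtTA, which switches on a RANKL transgene under a TetO promoter. RANKL is the cytokine encoded by Tnfsf11. The controls carried 1 of these transgenes only. Which one, the strain, the sex and the gland taken were not given in the sources used here. Mice of both groups were 9 weeks old when doxycycline was started in food and water, and it was given for 2 weeks. Tissue of 5 mice was pooled for each library, and the p-values below therefore measure differences among pools and not among mice.

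Ionocytes are scattered epithelial cells rich in ion channels and proton pumps. In several epithelia their identity depends on the forkhead factor Foxi1, and in salivary ducts Ascl3 marks cells of this kind. Salivary ducts take sodium back from the primary saliva through the epithelial sodium channel, exchange chloride for bicarbonate, and express Cftr at the luminal membrane. The vacuolar proton pump, or V-ATPase, is a complex of many subunits. Its B1 subunit, encoded by Atp6v1b1, is found mainly in acid-secreting cells such as kidney intercalated cells, whereas the B2 subunit is found in most cells.

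Stretches of upstream sequence are shown because they belong to the factor gene that fell most, the pump gene that carries a forkhead motif, and the member that rose. Each is the 250 bases before the annotated start in GRCm38.p6, from RefSeq, written 5′ to 3′ on the strand of the gene. Capitals mark the letters TGTTTAC, a core of forkhead sites, searched on both strands. The Ascl3 window is chr7:109731733-109731982 on the minus strand, the Atp6v1b1 window is chr6:83742767-83743016 on the plus strand, and the Cftr window is chr6:18170437-18170686 on the plus strand.
Ascl3: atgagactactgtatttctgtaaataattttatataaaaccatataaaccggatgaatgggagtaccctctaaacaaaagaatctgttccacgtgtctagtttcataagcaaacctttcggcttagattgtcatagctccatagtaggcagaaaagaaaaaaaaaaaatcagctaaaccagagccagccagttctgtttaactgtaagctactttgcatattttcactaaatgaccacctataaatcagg
Atp6v1b1: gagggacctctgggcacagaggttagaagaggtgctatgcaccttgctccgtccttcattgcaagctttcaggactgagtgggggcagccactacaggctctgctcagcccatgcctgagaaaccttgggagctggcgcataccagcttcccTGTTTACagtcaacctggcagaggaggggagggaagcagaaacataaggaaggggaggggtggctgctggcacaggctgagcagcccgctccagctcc
Cftr: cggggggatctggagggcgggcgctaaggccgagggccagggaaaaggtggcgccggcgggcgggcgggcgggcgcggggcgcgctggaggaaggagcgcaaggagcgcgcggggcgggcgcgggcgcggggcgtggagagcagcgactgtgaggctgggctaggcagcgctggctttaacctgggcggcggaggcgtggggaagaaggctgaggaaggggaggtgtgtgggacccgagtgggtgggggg
The table of promoters held a window for 9 of the 10 members, and Scnn1a was not among them. Among those 9 the forkhead letters stood only in the Atp6v1b1 window, where their first base lies 98 bases before the start. Of all 32851 windows of this length in the table, 1040 (3.17%) hold these letters. No member window held CAGCTG, an E-box core that reads the same on both strands, and 4271 of all windows (13%) do. The Ascl3 window is 34.8% G and C, below the median of 52.4% over all windows, and the Cftr window is 76.4% G and C. These matches describe letters and not binding, and other forms of the forkhead and E-box sites were not searched.

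Library totals ran from 13875951 to 17921815 counts in controls and from 14149734 to 16412579 in K5-RANKL libraries. Levels are given as CPM, which set a gene's reads against its library size after scaling with TMM (trimmed mean of M values). A log2 fold change is K5-RANKL over control. The transgene product was checked first: Tnfsf11 stood at 3.78, 1.86 and 0.938 CPM in the controls and at 701, 405 and 723 CPM in the K5-RANKL libraries, so every library matched its label. The TMM factors of the groups were far apart: they averaged 0.708 ± 0.0291 for controls but 1.41 ± 0.0801 for K5-RANKL (SD, n = 3 each). Without them, scaling by totals put the median gene at a log2 fold change of 1.01 and not 0.01, and the members and gene lists whose calls this scaling alters are given on both scales.

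Of the 9 members tested, 7 fell, Cftr rose and Slc4a4 did not pass (edgeR quasi-likelihood test, adjusted p under 0.05 over all genes tested). The background was broad: 66.2% of all genes tested were called, 32.1% lower and 34.2% higher. The control and K5-RANKL libraries did not overlap for 8 of the 9 members, against 70.4% of all genes tested. The median log2 fold change of the 9 was -1.48, beside 0.01 over all genes. RNA of whole tissue cannot tell fewer cells of a type apart from less RNA per cell.

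**Figure D1:**
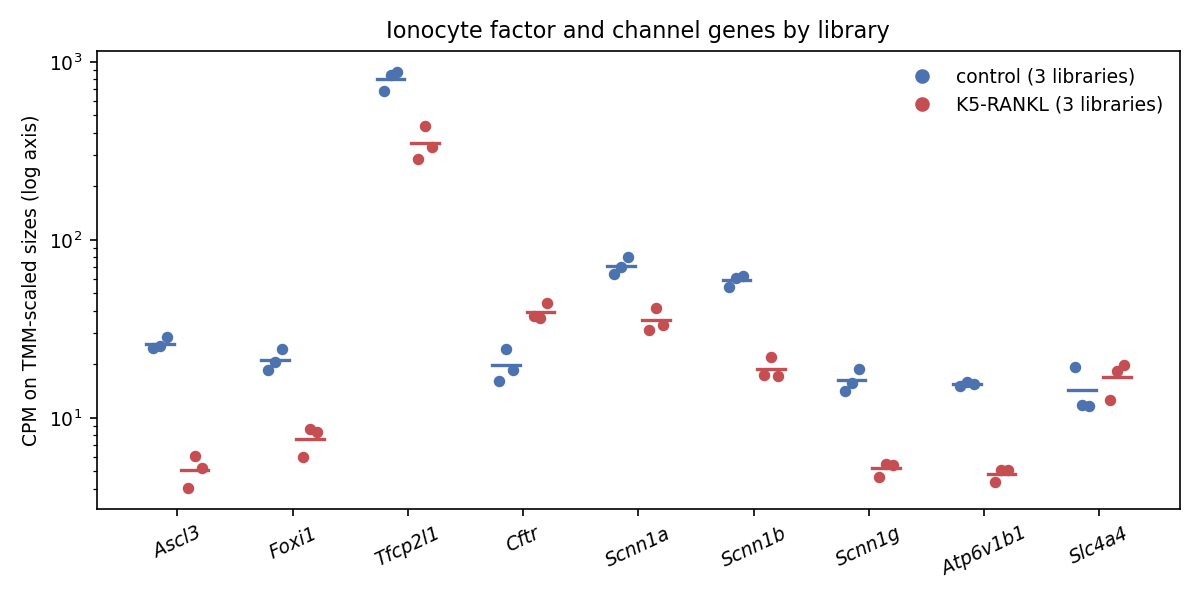
CPM of the 9 tested genes (log axis) in 3 control (blue) and 3 K5-RANKL (red) libraries, with each point a library and each line a group mean. Red points lie below blue for 7 genes and above blue for Cftr, and the points of Slc4a4 overlap.

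The 3 transcription factor genes fell, by different amounts. Ascl3, a basic helix-loop-helix factor of duct cells (chromosome 7, 109727465 to 109731732, minus strand), fell most. It stood at 24.6, 25.3 and 28.5 CPM in the controls and at 4.02, 6.09 and 5.26 CPM in the K5-RANKL libraries. Every K5-RANKL library lay far below the lowest control. Its log2 fold change was -2.37 (SE 0.13, edgeR adjusted p = 6.25e-11), a level 5.15-fold lower, and only 1.09% of the genes tested had a lower log2 fold change.

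Foxi1, the forkhead factor of ionocytes (chromosome 11, 34204341 to 34208089, minus strand), stood at 18.7, 20.7 and 24.2 CPM in the controls. In the K5-RANKL libraries it stood at 6.01, 8.61 and 8.33 CPM. The groups were apart, and Foxi1 fell by 1.48 (SE 0.14, edgeR adjusted p = 1.12e-07), a level 2.80-fold lower.

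Tfcp2l1, a CP2-family factor of duct and kidney epithelium (chromosome 1, 118627923 to 118685168, plus strand), was far more abundant. Its controls held 684, 843 and 881 CPM and its K5-RANKL libraries 285, 434 and 331 CPM. The groups did not overlap, although the K5-RANKL libraries ran from 285 to 434 CPM. Tfcp2l1 fell by 1.20 (SE 0.16, edgeR adjusted p = 0.000125), 2.30-fold. Its fall by library totals was 0.22 and did not pass (edgeR adjusted p = 0.128). An exon of Tfcp2l1 overlaps the small nuclear RNA gene Gm23497 over 130 bases on the same strand, so reads there are uncertain.

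Ascl3 fell further than Foxi1 within the libraries. The ratio of Ascl3 to Foxi1 counts was 1.24 in controls and 0.670 in K5-RANKL libraries (geometric means, n = 3 each). The log2 ratio was lower by a mean of 0.88, with no overlap between groups (exact two-sided permutation p = 0.1, adjusted 0.167). With 3 against 3 libraries 0.1 is the smallest p this test can give, and 10 such ratios were compared. Tfcp2l1 over Foxi1 was 37.8 in controls and 45.4 in K5-RANKL libraries, with overlapping groups (exact permutation p = 0.2, adjusted 0.222).

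The sodium channel, which takes up sodium at the luminal side of duct cells, is built of an alpha, a beta and a gamma subunit. All 3 subunit genes fell, and the alpha gene fell least. Scnn1a, the alpha subunit gene (chromosome 6, 125314271 to 125344943, plus strand), stood at 64.1, 70.1 and 80.6 CPM in controls and at 31.3, 41.6 and 33.1 CPM in K5-RANKL libraries. All K5-RANKL libraries were below all controls. Scnn1a fell by 1.02 (SE 0.11, edgeR adjusted p = 2.45e-06), but by 0.035 when library totals alone set the scale (edgeR adjusted p = 0.766).

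Scnn1b, the beta subunit gene (chromosome 7, 121865038 to 121918728, plus strand), stood at 54.3, 61.3 and 62.3 CPM in controls and at 17.4, 22.03 and 17.2 CPM in K5-RANKL libraries. It fell by 1.66 (SE 0.10, edgeR adjusted p = 1.86e-10). Scnn1g, the gamma subunit gene, lies upstream of Scnn1b on the same strand (chromosome 7, 121734420 to 121768482) and stood at 14.2, 15.8 and 18.9 CPM in controls. Its K5-RANKL libraries held 4.65, 5.51 and 5.45 CPM, and it fell by 1.66 (SE 0.13, edgeR adjusted p = 7.997e-09). The groups of both genes were well apart.

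Within libraries the beta and gamma genes both lost ground to the alpha gene, and no difference between the groups was detected in their own ratio. Scnn1g over Scnn1b was 0.274 in controls and 0.277 in K5-RANKL libraries, a mean log2 difference of 0.017 (exact permutation p = 0.8). Its log2 value lay between -1.95 and -1.72 in the 3 controls and between -1.99 and -1.66 in the 3 K5-RANKL libraries. Scnn1b over Scnn1a went from 0.831 to 0.535, a log2 difference of -0.63. Scnn1g over Scnn1a went from 0.227 to 0.148, a log2 difference of -0.62. Neither of these last ratios overlapped between groups (exact permutation p = 0.1 each, adjusted 0.167).

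Cftr, the cyclic AMP-gated chloride and bicarbonate channel (chromosome 6, 18170687 to 18322770, plus strand), was the member that rose. It stood at 16.1, 24.4 and 18.7 CPM in controls and at 37.5, 36.3 and 44.1 CPM in K5-RANKL libraries. Every K5-RANKL library was above the highest control. Its log2 fold change was 1.00 (SE 0.13, edgeR adjusted p = 1.70e-05), 2.00-fold, and 82.9% of the genes tested had a lower log2 fold change. Cftr over Foxi1 went from 0.922 in controls to 5.17 in K5-RANKL libraries, a log2 difference of 2.49 with no overlap (exact permutation p = 0.1, adjusted 0.167). Exons of Cftr and of the antisense gene Gm15592 share 129 bases, and whether the counting used strand was not given in the sources used here.

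Slc4a4, the sodium bicarbonate cotransporter of the basolateral membrane (chromosome 5, 88793858 to 89239656, plus strand), stood at 19.3, 11.8 and 11.6 CPM in controls and at 12.6, 18.2 and 19.8 CPM in K5-RANKL libraries. Control 1 was as high as the upper K5-RANKL libraries, and the groups overlapped. The log2 fold change was 0.24 (SE 0.26, edgeR adjusted p = 0.451). Without control 1 it was 0.52 and passed (edgeR adjusted p = 0.0391), and by library totals it was 1.24 (edgeR adjusted p = 0.000114).

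Slc26a4 encodes pendrin, a chloride-bicarbonate exchanger of ionocytes and intercalated cells (chromosome 12, 31519814 to 31560055, minus strand). It was close to undetected, with 1, 0 and 0 counts in controls and 2, 1 and 2 counts in K5-RANKL libraries. The ratio of K5-RANKL to control CPM was 2.63, with a 95% interval of 0.294 to 124 that covers counting error only. No difference was detectable at this depth, since 3 counts over a group correspond to 0.0886 CPM for the controls and to 0.0467 CPM for K5-RANKL.

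**Figure D2:**
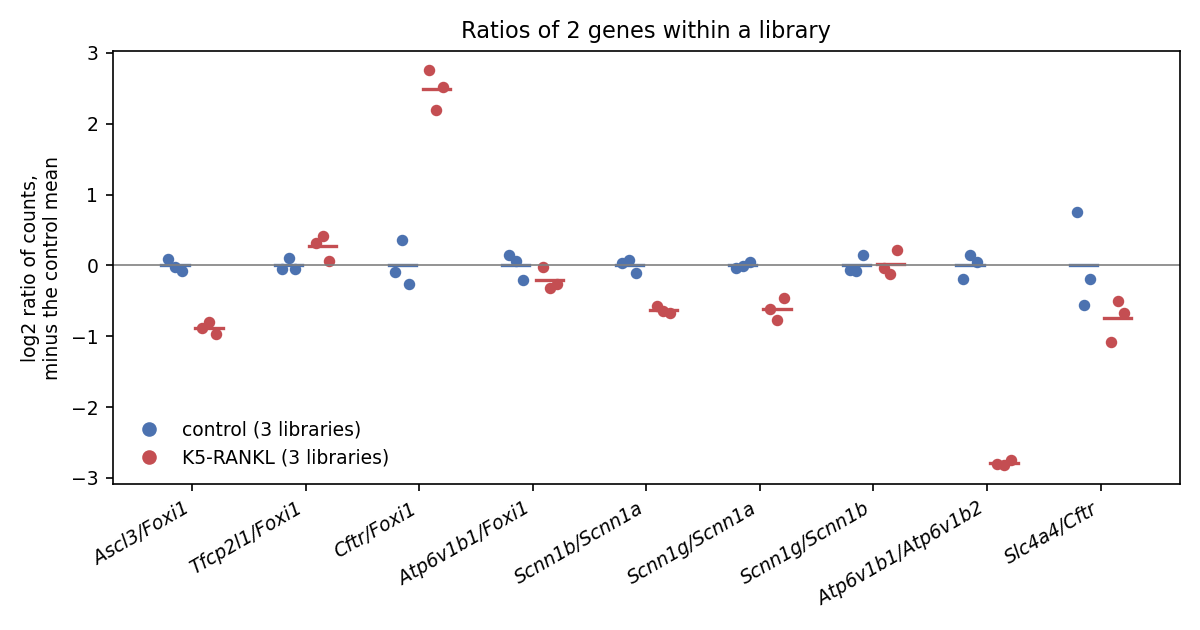
Log2 ratio of the counts of 2 genes within each library, minus the control mean of that ratio (y axis), for 9 gene pairs in 3 control (blue) and 3 K5-RANKL (red) libraries; lines are group means. Cftr over Foxi1 is higher by 2.49 and Atp6v1b1 over Atp6v1b2 lower by 2.79, while Scnn1g over Scnn1b lies on the control line.

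Atp6v1b1, the B1 subunit of the proton pump (chromosome 6, 83743017 to 83758855, plus strand), stood at 15.2, 16.0 and 15.5 CPM in controls. Its K5-RANKL libraries held 4.35, 5.08 and 5.12 CPM. Both groups were tight and far apart, and Atp6v1b1 fell by 1.68 (SE 0.12, edgeR adjusted p = 1.79e-09), 3.21-fold. Atp6v1b1 over Foxi1 was 0.738 in controls and 0.641 in K5-RANKL libraries, with overlapping groups (exact permutation p = 0.2, adjusted 0.222).

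The B2 gene moved the opposite way. Atp6v1b2 stood at 63.9, 52.9 and 54.96 CPM in controls and at 111, 131 and 127 CPM in K5-RANKL libraries, and rose by 1.10 (SE 0.09, edgeR adjusted p = 6.05e-09). Atp6v1b1 over Atp6v1b2 went from 0.273 to 0.0396, a log2 difference of -2.79 without overlap (exact permutation p = 0.1, adjusted 0.167).

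Other subunits of the pump were called in both directions, as were all genes. Besides Atp6v1b1, a list of 24 V-ATPase genes had 21 tested, of which 9 rose, 5 fell and 7 missed the threshold. Over all genes tested 34.2% were called higher and 32.1% lower. The median log2 fold change of the list was 0.11 beside 0.01 over all genes. By library totals 20 rose and 1 fell. Atp6v1c2, a C subunit of restricted tissues, stood at 13.7, 10.01 and 10.1 CPM in controls and at 1.45, 0.695 and 1.54 CPM in K5-RANKL libraries. It fell by 3.16 (SE 0.22, edgeR adjusted p = 3.60e-09), further than any of the 9 tested members. Tcirg1, the a3 subunit gene known for acid secretion by osteoclasts, rose by 1.00 (SE 0.08) from 23.1 ± 1.03 to 46.3 ± 2.51 CPM (SD, n = 3 each; edgeR adjusted p = 1.07e-08).

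Atp6v0a4, the a4 subunit gene of intercalated cells, rose where Atp6v1b1 fell. It had 1, 1 and 2 counts in controls and 177, 118 and 135 counts in K5-RANKL libraries. The log2 fold change was 5.73 (SE 0.33, edgeR adjusted p = 9.66e-11) on a control level that rests on a handful of counts. Atp6v0d2, a d subunit gene of osteoclasts and kidney, was at 48.3 ± 1.91 and 43.0 ± 7.40 CPM (SD, n = 3 each) and did not pass (log2 fold change -0.17, edgeR adjusted p = 0.178). Without K5-RANKL 2 it was -0.29 and passed (edgeR adjusted p = 0.0122). Scaled to the pan-epithelial marker genes described below, it was -0.26 and passed (edgeR adjusted p = 0.0425). By library totals it was 0.82 and was called higher (edgeR adjusted p = 1.18e-07). Atp6v1g3 had 3, 2 and 11 counts in controls and 17, 15 and 9 in K5-RANKL libraries and was not tested. Atp6v0c, encoding the proteolipid ring subunit, and its pseudogene Atp6v0c-ps2 were both listed at 0 in every library, so their values are uncertain and were not read as absence.

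**Figure D3:**
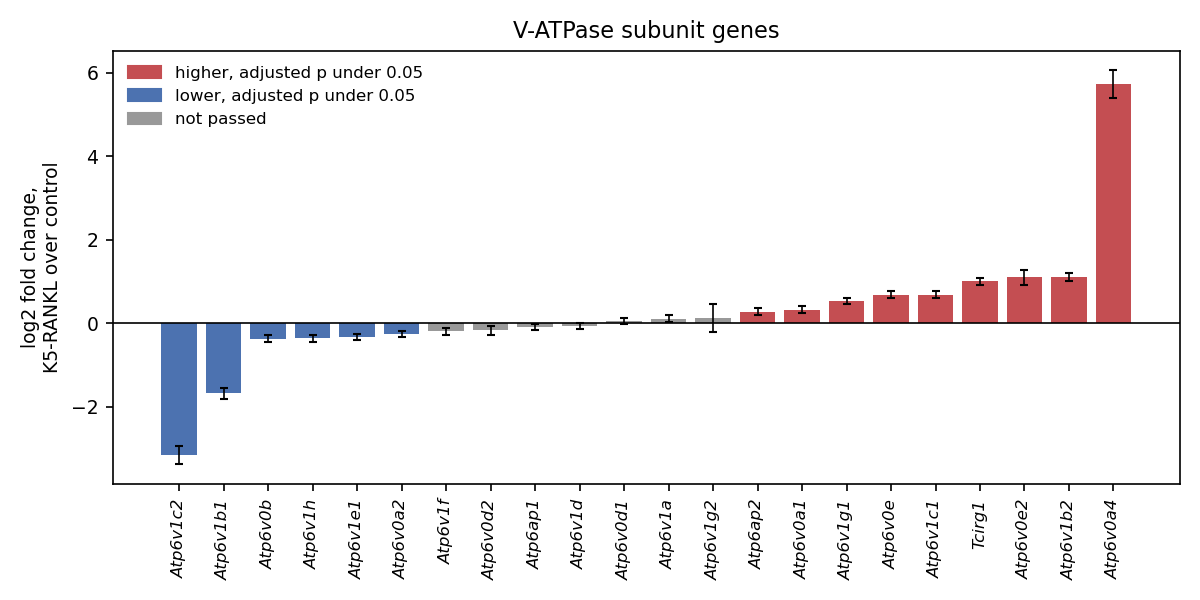
Log2 fold change of the tested V-ATPase subunit genes, Atp6v1b1 included, with bars coloured by call (red higher, blue lower, grey not passed) and error bars of 1 standard error. Atp6v1c2 at -3.16 and Atp6v1b1 at -1.68 lie at the low end and Atp6v0a4 at 5.73 at the high end.

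Per kilobase of exon (GENCODE M21), Tfcp2l1 stood first and Slc26a4 last in both groups, and the order between them changed. Controls ran from Tfcp2l1 at 85.0 ± 11.1 CPM per kilobase through Ascl3 at 37.3 ± 2.94, Scnn1b at 22.5 ± 1.65, Scnn1a at 17.3 ± 2.02 and Foxi1 at 9.00 ± 1.19 (SD, n = 3). Below these stood Scnn1g at 5.45 ± 0.805, Atp6v1b1 at 3.55 ± 0.0918, Cftr at 2.54 ± 0.548, Slc4a4 at 1.32 ± 0.407 and Slc26a4. No neighbours in this order had overlapping ranges with this length. In K5-RANKL libraries Tfcp2l1 still led at 37.1 ± 8.08, and Scnn1a, Ascl3 and Scnn1b followed at 8.55 ± 1.33, 7.32 ± 1.49 and 7.18 ± 1.03, with ranges that overlapped from 1 to the next. Cftr came next at 5.06 ± 0.545, above Foxi1 at 3.25 ± 0.605, so it moved from place 8 to place 5. Scnn1g at 1.74 ± 0.161 and Slc4a4 at 1.56 ± 0.347 overlapped, and Atp6v1b1 stood below them at 1.11 ± 0.0983. With the longest coding transcript as length, Atp6v1b1 stood above Scnn1g in both groups, and Cftr again moved from place 8 to place 5. With that length Scnn1b overlapped Scnn1a and Foxi1 overlapped Atp6v1b1 in controls. In K5-RANKL libraries Scnn1b, Ascl3 and Cftr then overlapped from 1 to the next, as did Foxi1, Atp6v1b1, Slc4a4 and Scnn1g, in that order.

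Most other genes of ionocytes and intercalated cells fell with the members. Of 17 listed, 13 were tested, 9 fell, P2ry14 rose and 3 did not pass, where 32.1% of all genes fell. Their median log2 fold change was -0.96. By library totals 4 of the 13 fell and 4 rose. The summed level of the list was between 196 and 228 CPM in controls and between 86.4 and 98.5 CPM in K5-RANKL libraries. Bsnd, encoding barttin, an accessory subunit of basolateral chloride channels, stood at 32.3, 36.5 and 43.6 CPM in controls and at 7.76, 10.7 and 7.68 CPM in K5-RANKL libraries. It fell by 2.12 (SE 0.14, edgeR adjusted p = 2.99e-08) from 37.5 ± 5.71 to 8.73 ± 1.75 CPM. The groups of Bsnd were far apart.

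Foxi2, a homologue of Foxi1, fell by 1.90 (SE 0.23, edgeR adjusted p = 9.13e-06) from 10.97 ± 2.97 to 2.97 ± 0.749 CPM. Foxi3, another homologue, had 0 counts in all libraries. Asgr1, better known as a receptor subunit of liver, fell by 2.03 (SE 0.18, edgeR adjusted p = 1.92e-08). Kit, a receptor tyrosine kinase that other epithelial and mast cells also express, fell by 0.96 (SE 0.09, edgeR adjusted p = 4.43e-08), but was 0.030 higher on the log2 scale by library totals. P2ry14, a receptor for UDP-sugars, rose by 0.93 (SE 0.18, edgeR adjusted p = 0.000209) from 3.65 ± 0.946 to 7.04 ± 0.671 CPM. It was named after its values were seen, being the exception in its list.

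Regulators of the sodium channel were called in each direction about as often as all genes. Of 15 tested among 16 listed, 5 rose, 5 fell and 5 missed the threshold, around a median log2 fold change of 0.08. Over all genes tested 34.2% rose and 32.1% fell, so these counts say nothing particular about the list. By library totals 11 rose and 2 fell. Prss8, a channel-activating membrane protease, fell by 1.39 (SE 0.09, edgeR adjusted p = 4.61e-10) from 106 ± 7.01 to 40.5 ± 5.11 CPM. Tmprss4, another membrane serine protease, rose by 4.01 (SE 0.29, edgeR adjusted p = 2.29e-09) from 0.377 ± 0.0877 to 6.28 ± 1.23 CPM. Its control level rests on 4, 3 and 6 counts. St14, encoding matriptase, rose by 0.51 (SE 0.07, edgeR adjusted p = 1.09e-05). Nr3c2, the mineralocorticoid receptor through which aldosterone acts on the channel, fell by 1.15 (SE 0.16, edgeR adjusted p = 6.82e-06), but by 0.15 without a call by library totals.

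Other chloride, bicarbonate, proton and potassium transport genes of ducts mostly fell. Of 29 listed, 23 were tested, 16 fell, 3 rose and 4 missed the threshold, where 32.1% of all genes fell and 34.2% rose. The median log2 fold change of the list was -1.08. By library totals 8 fell and 10 rose. Kcnn4, a calcium-activated potassium channel, fell by 2.03 (SE 0.11, edgeR adjusted p = 5.41e-10). Car12, a membrane carbonic anhydrase, fell by 1.74 (SE 0.10, edgeR adjusted p = 4.40e-10). Kcnk1, a potassium leak channel, fell by 1.39 (SE 0.08, edgeR adjusted p = 6.46e-11), and Fxyd2, a modulator of the sodium pump, by 1.34 (SE 0.08, edgeR adjusted p = 2.42e-10). Slc26a6, a chloride-bicarbonate exchanger named after its values were seen, fell by 1.73 (SE 0.11, edgeR adjusted p = 5.97e-10) from 19.4 ± 0.999 to 5.86 ± 0.629 CPM. The 3 that rose were Slc4a2, an anion exchanger, Kcnj15, a potassium channel, and Oxsr1, a kinase of cation-chloride cotransporters, at 0.28, 0.76 and 0.48.

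**Figure D4:**
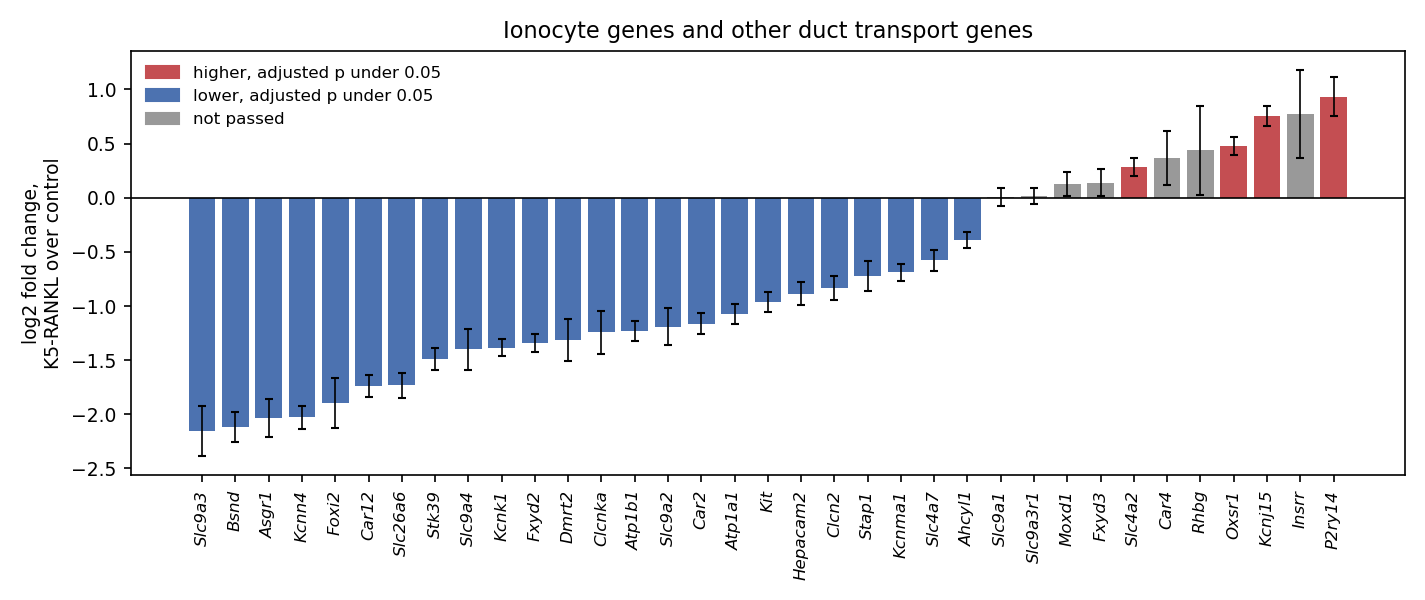
Log2 fold change of the tested ionocyte and intercalated cell genes and of other duct transport genes, 1 gene left out, with bars coloured by call (red higher, blue lower, grey not passed) and error bars of 1 standard error. Most bars point down, among them Bsnd at -2.12, and P2ry14 is among the few that rose.

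Cell type markers moved in both directions, where 34.2% of all genes tested were called higher and 32.1% lower. By library totals 11733 of the 14044 genes tested were higher and 698 lower. Counts near these shares say nothing particular about a list. Markers of granular ducts, the duct segment of secretory granules, fell for 5 of 7 tested, from a summed 23249 to 24733 CPM in controls to 7380 to 9516 CPM in K5-RANKL libraries, Klk1 most abundant. By library totals 2 of the 7 fell and 2 rose. All 10 acinar markers fell, from 105858 to 154206 CPM to 6116 to 8715 CPM, Bpifa2 most abundant, and 9 fell by totals. The summed level of general duct epithelium markers was 766 to 778 CPM in controls and 602 to 617 CPM in K5-RANKL libraries. Of 6, 2 rose and 3 fell, and by totals 5 rose and 1 fell. Krt19 was at 2.61 and Cldn4 at 1.56. Elf5 was at -2.12 (edgeR adjusted p = 5.97e-08), and Elf3 did not pass. Ehf, the most abundant, was at -0.61 (edgeR adjusted p = 1.27e-06) but at 0.39 by totals. Krt7 was at -0.19, a narrow call (edgeR adjusted p = 0.0372) that was lost without control 1 (adjusted p = 0.147), without K5-RANKL 1 (0.0504) or without K5-RANKL 2 (0.130). Pan-epithelial markers were at 1231 to 1286 CPM in controls and 1632 to 1694 CPM in K5-RANKL libraries, with 6 of 10 higher and 3 lower, and 9 higher and 0 lower by totals. Basal (5 of 5, Krt5 most abundant), microfold (5 of 5), leukocyte (8 of 9), osteoclast (5 of 5 tested) and fibroblast (4 of 5) markers rose and none of them fell, on either scale. Myoepithelial markers fell for 3 of 4, endothelial markers rose for 2 and fell for 1 of 4, nerve markers rose for 1 and fell for 1 of 4, and no adipocyte marker of 3 passed. By totals 2 myoepithelial, 4 endothelial, 3 nerve and 3 adipocyte markers rose and none fell. The lower endothelial call was lost without control 3, and the nerve calls were lost when any of several single libraries was left out. The part of these cell types in the fall of the members was not tested.

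Osteoclasts carry much V-ATPase, so their markers are given beside the pump genes. The summed level was 37.7 to 40.0 CPM in controls and 411 to 555 CPM in K5-RANKL libraries, Calcr was at 0 in controls, and Acp5, a phosphatase of osteoclasts and macrophages, rose by 3.05 (SE 0.10, edgeR adjusted p = 7.83e-14). Leukocyte markers, Csf1r most abundant, went from 209 to 237 CPM to 639 to 662 CPM. Their part in the rise of Tcirg1, Atp6v1b2 and Cftr was not tested.

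Scaled to the pan-epithelial markers in place of all genes, the members kept their directions and calls. Ascl3 was at -2.45, Foxi1 at -1.57, Tfcp2l1 at -1.29, Scnn1a at -1.11, Scnn1b and Scnn1g at -1.74, Atp6v1b1 at -1.77 and Cftr at 0.91 on this scale. By library totals, which moved the median of all genes by about the same step as each member, Ascl3 was at -1.37, Foxi1 at -0.49, Scnn1b and Scnn1g at -0.66, Atp6v1b1 at -0.69 and Cftr at 1.99. All 6 of these passed under both scalings. Tfcp2l1 and Scnn1a lost their calls by totals, as given above.

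**Figure D5:**
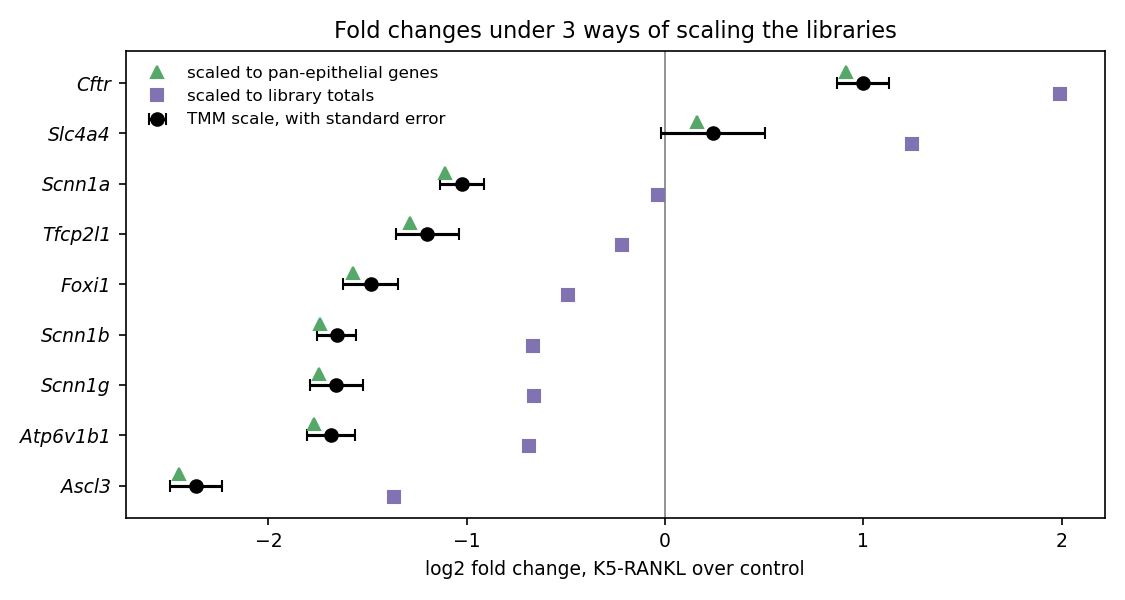
Log2 fold change of the 9 tested genes (x axis) with TMM scaling (black circles, bars of 1 standard error), scaling to pan-epithelial genes (green triangles) and scaling to library totals (purple squares). Totals move every gene to the right, Scnn1a to -0.035, and no gene crosses 0.

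The K5-RANKL libraries differed among themselves over the members. The same counts were not taken over all genes, so whether these differences are particular to the members was not tested. Set against the other libraries of its group, K5-RANKL 2 was higher for 8 of 9 members, with a median of 0.28 on the log2 scale, and K5-RANKL 1 was lower for 9 of 9, with a median of -0.25. K5-RANKL 2 had the lowest Tnfsf11, and its Krt5 was 161 CPM where the other K5-RANKL libraries held 397 and 368 CPM. Control 1 was lower for 8 of 9 members, with a median of -0.23. Whether these levels bear on the members was not tested. Without K5-RANKL 2, Ascl3 was at -2.50 and Tfcp2l1 at -1.39.

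The tested genes with profiles most like the members were found by the root mean square distance between log2 CPM profiles over the 6 libraries, each centred on its mean, among 14043 other genes. Nearest to Ascl3 were Cyp2s1 (0.0466), Lpo (0.0521) and Asah2 (0.115). Foxi1 had Slc22a4 (0.0519), Rasd2 (0.0887) and Acpp (0.0986), and Tfcp2l1 had Stxbp6 (0.0641) and Galm (0.0673), whose fall of 1.13 was 0.14 and not called by library totals. For Cftr they were Ifi47 (0.0531), Lrrcc1 (0.0588) and Sirpb1a (0.0597), and for Scnn1g Hhatl (0.0505), 2810410L24Rik (0.0722) and Gstt3 (0.0841). Sirpb1a had only 2, 4 and 3 counts in controls and 14, 11 and 15 in K5-RANKL libraries, and its call was lost under DESeq2 (adjusted p = 0.150). The member closest to Foxi1 was Scnn1g, in place 10 at 0.115, and the member closest to Tfcp2l1 was Scnn1a, in place 27 at 0.123. For Scnn1g it was Foxi1, in place 15. For Ascl3 it was Atp6v1b1, only in place 223 at 0.362, and for Cftr it was Slc4a4, only in place 6277 at 0.565. The 6 libraries fall into 2 groups, so these distances mainly order genes by the size of the group difference.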

How the data were processed

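Messenger RNA of salivary gland was sequenced with a TruSeq Stranded mRNA kit from 250 ng of RNA per library, per the labels' protocols. The authors deposited raw read counts per gene as whole numbers. Reads were aligned with STAR to mm10, per the submitters' processing notes. The counting tool, annotation and strand setting were not given in the sources used here.

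Groups follow the genotype label, and replicate numbers follow deposition order and pair nothing. Pairs of libraries within a group differed by a chi-square of 6.26 to 38.3 per gene, so none was a copy of another. Controls 2 and 3 differed least, at 6.26, and control 1 differed from them by 37.0 and 38.3. The counts were filtered with filterByExpr (minimum count 10), scaled by TMM and compared by the robust quasi-likelihood test of edgeR on all 6 libraries, with Benjamini-Hochberg adjustment over all 14044 genes tested and a call at an adjusted p under 0.05. The standard error is the log2 fold change over the root of the F statistic. The versions were edgeR 4.0.16, DESeq2 1.42.0 and limma 3.58.1 in R 4.3.3. The procedure was tested on simulated data. Ratios of 2 genes within a library add 0.5 to each count and use exact permutation tests. A count of 0 in a library allows up to 0.235 to 0.294 CPM in controls and 0.124 to 0.160 CPM in K5-RANKL libraries (3 counts, counting error only).

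Positions come from RefSeq for GRCm38, with 23495 of 23571 Entrez identifiers matched, and lengths from GENCODE M21. The members, the 4 lists of related genes and the 13 marker lists were chosen with earlier results of these data known. Named genes are the members, Tnfsf11, the 4 called genes with the smallest p of each related list, homologues of members, restricted V-ATPase subunits, the most abundant marker of each list, and the 3 nearest profiles of 5 members. Krt7, Krt19, Cldn4, Elf3, Elf5, Calcr, Stap1, Slc26a6, P2ry14, Slc4a2, Kcnj15 and Oxsr1 were named after their values were seen. Not every gene the rule selects is reported here. Alternatives were other scalings, filters, tests and prior counts, and leaving out each library.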

Additional observations from a re-analysis of the deposited data

How the results depend on the processing

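No paired analysis was possible because the labels give the libraries no replicate numbers. None of the 9 tested members changed direction under the 17 alternatives. Library totals alone changed most: 11733 genes were higher and 698 lower, against 4799 and 4505 on the TMM scale, so the share of higher calls went from 51.6% to 94.4%. On that scale 2 members were called higher, Tfcp2l1 was at -0.22, Scnn1a at -0.035 and Slc4a4 at 1.24. The ionocyte list then had 4 higher and 4 lower, V-ATPase genes 20 and 1, sodium channel regulators 11 and 2, and other transport genes 10 and 8. Changes of sign were followed for 52 of the named genes, and Elf3, Elf5 and Cldn4 were not among them. Those that changed sign by totals were Acta2 (0.60), Adipoq (0.78), Atp6v0d2 (0.82), Ehf (0.39), Kit (0.030), Krt7 (0.81) and Stap1 (0.28). Scaling to pan-epithelial genes gave 8 lower V-ATPase genes. Leaving out single libraries gave 1 to 2 members called higher (2 without control 1), 0.11 to 0.52 for Slc4a4, and a log2 difference of -0.080 to 0.093 for Scnn1g over Scnn1b, a ratio whose sign is therefore not settled. Over 52 named genes, 7 of 882 values reversed, all by totals. Without a change of sign 13 values lost their call, 11 of them of Krt7 and Sirpb1a, and 3 gained one. Apart from the scale, whose construction shifts every gene alike, the cause of these changes was not tested. Depth limits Slc26a4, Atp6v1g3, Sirpb1a and the control levels of Atp6v0a4 and Tmprss4.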
